A study of Arabidopsis thaliana with 8 samples.

Results

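The 10 genes described here are transcription factor genes that pattern the style and stigma of the Arabidopsis thaliana gynoecium. They were chosen by gene ID from the 33977 genes of the deposited table, as the 4 NGATHA genes NGA1 (AT2G46870), NGA2 (AT3G61970), NGA3 (AT1G01030) and NGA4 (AT4G01500), the STYLISH genes STY1 (AT3G51060) and STY2 (AT4G36260), the HECATE genes HEC1 (AT5G67060), HEC2 (AT3G50330) and HEC3 (AT5G09750), and SPATULA (SPT, AT4G36930). RNA was sequenced from whole floral buds of stages 8 to 10, pooled within each genotype. The amiRNACWIN24 buds came from transgenic line 4-3, in which pSTK::amiRNACWIN24 expresses an artificial microRNA against the cell wall invertases CWINV2 and CWINV4, by its name, from the promoter of the ovule identity gene STK. They were compared with wild-type (WT) buds without the transgene, with 4 biological replicates of each genotype. Only 1 transgenic line was sequenced, so an effect of the artificial microRNA and any other feature of line 4-3 cannot be told apart. The study asked what underlies the role of cell wall invertase, which cleaves sucrose outside the cell, in the initiation of ovules.

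The style and stigma form at the tip of the gynoecium, where pollen lands and from where pollen tubes grow towards the ovules. NGA proteins are B3-domain DNA-binding proteins that act redundantly, and plants that lack them fail to make a style and stigma. STY proteins are zinc-finger activators of the SHI family that promote style growth and switch on auxin synthesis genes. HEC proteins are basic helix-loop-helix (bHLH) factors that bind the bHLH factor SPT and act with it in the stigma and in the transmitting tract, the tissue through which pollen tubes grow.

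Levels are RPKM, reads normalised to transcript length and to the mapped reads of a library, which puts genes on a per-length scale. Libraries still differed in a trend with exon length, described below, which also enters comparisons between genes. The number of mapped reads, worked out from the size of a single-read step in RPKM, was 25.6 to 26.8 M in amiRNACWIN24 libraries and 26.6 to 29.1 M in WT libraries. Genotype differences are amiRNACWIN24 minus WT means of log2(RPKM + 0.5), given as log2 fold changes, a scale on which changes of low genes come out smaller. A gene passed when its adjusted p from limma, a linear model with a shared estimate of the spread, was under 0.05. CWINV4 was lower in amiRNACWIN24 buds, at 13.8 ± 1.76 RPKM against 26.9 ± 2.61 RPKM in WT buds (SD, n = 4 each). CWINV2 was between 0.0166 and 0.105 RPKM in amiRNACWIN24 libraries, against 0.0161 to 0.0317 RPKM in 3 WT libraries and 2.75 RPKM in WT replicate 1, so it gives no check of the construct. STK itself was at 0.599 ± 0.156 RPKM in amiRNACWIN24 buds against 9.82 ± 1.44 RPKM in WT buds. The summed level of 5 floral organ identity genes (AG, AP1, AP3, PI and SEP3) was 674 to 739 RPKM in amiRNACWIN24 libraries and 742 to 912 RPKM in WT libraries, and 1 of the 5, PI, fell, where 21.0% of all genes tested fell. With exon length taken into account as described below PI did not pass (log2 fold change -0.13, limma adjusted p = 0.098) and AG fell (-0.28, adjusted p = 0.012).

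Several properties of the libraries moved with genotype. The summed level of 6 late pollen genes was 19.7 to 30.7 RPKM in amiRNACWIN24 libraries against 122 to 300.3 RPKM in WT libraries, highest in WT replicates 1 and 2. Of the 6 genes 4 fell, beside 21.0% of all genes tested, or 3 once the trend with exon length, described below, was removed, beside 14.2%. The summed level of 6 tapetum genes was 302 to 661 RPKM in amiRNACWIN24 libraries against 143 to 424 RPKM in WT libraries, lowest in WT replicates 1 and 2. Of 5 tested tapetum genes 3 rose, beside 29.4% of all genes tested, and the sixth, DYT1, was near 0 in all libraries. Only ACOS5 of the tapetum genes passed with the length trend described below removed, beside 15.1% of all genes that rose. Likewise only ACOS5 passed without WT replicates 1 and 2, beside 24.2%. The genotype difference of all genes also climbed with exon length, and its median was -0.49 (log2) in the decile of shortest genes and 0.61 in that of the longest. Genotype differences below were therefore also computed with this length trend taken out library by library, and without WT replicates 1 and 2. The part of pollen and tapetum content in the results was not tested otherwise, and in whole buds fewer cells of a type and less RNA per cell cannot be told apart.

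Of the 10 regulators 9 reached the mean of 1 RPKM needed for a test. NGA1, NGA3, NGA4, STY2 and SPT rose in amiRNACWIN24 buds, none of the 9 fell, and NGA2, HEC1, HEC2 and HEC3 did not pass (limma with Benjamini-Hochberg adjustment over 19082 genes). These 5 of 9 stand beside 29.4% of all genes tested that rose and 21.0% that fell. The median log2 fold change was 0.37 over the 9 regulators and 0.07 over all genes tested. With the length trend removed the same 5 rose and 0 fell, against 15.1% and 14.2% of all genes, and the medians were 0.43 and 0.03. Without WT replicates 1 and 2 only NGA3, STY2 and SPT of the regulators rose and HEC3 fell, against 24.2% and 20.3% of all genes. With the length trend removed as well, NGA1, NGA3, STY2 and SPT rose and 0 fell. In that fit 2403 of 18994 genes rose and 2676 fell. In 4 of the 9, NGA1, NGA3, STY2 and SPT, every amiRNACWIN24 library was above every WT library, and for no regulator was every amiRNACWIN24 library below. The share of all genes whose libraries did not overlap was 27.4% higher and 18.4% lower in amiRNACWIN24.

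**Figure D1:**
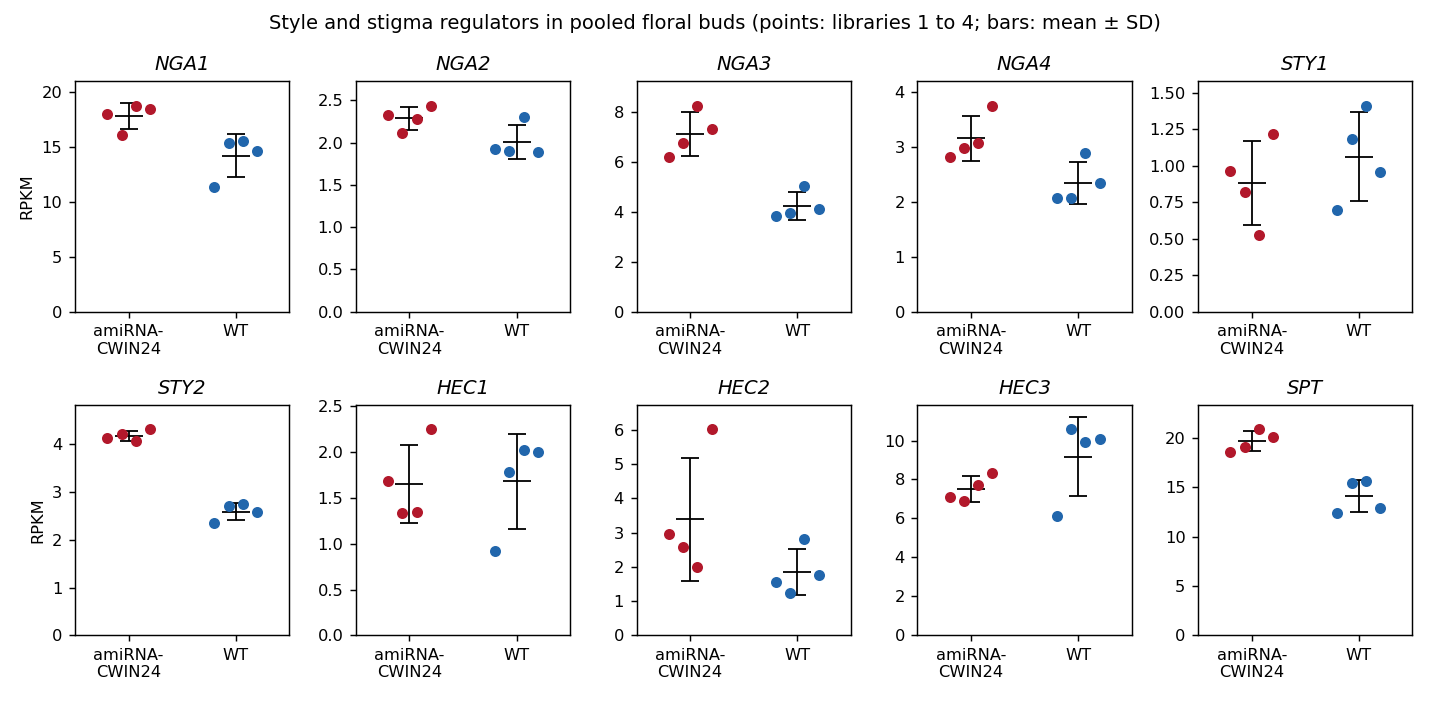
RPKM of each regulator in the 4 amiRNACWIN24 libraries (red, left) and the 4 WT libraries (blue, right), with mean ± SD and an axis from 0 in each panel. The groups are apart in NGA1, NGA3, STY2 and SPT and overlap in the other 6 genes.

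Among the NGA genes the largest difference was in NGA3. It measured 6.18, 6.74, 8.23 and 7.32 RPKM in amiRNACWIN24 replicates 1 to 4, against 3.84, 3.94, 5.04 and 4.10 RPKM in WT replicates 1 to 4. The lowest amiRNACWIN24 library lay above the highest WT library, and replicate 3 was the highest in either genotype. The means were 7.12 ± 0.875 RPKM in amiRNACWIN24 buds and 4.23 ± 0.549 RPKM in WT buds (SD, n = 4 each), a ratio of 1.68. The log2 fold change was 0.69 with a standard error of 0.12 (limma adjusted p = 0.00091), 0.58 with the length trend removed (adjusted p = 0.0031) and 0.59 without WT replicates 1 and 2 (adjusted p = 0.0065). These values rest on 315 to 415 reads in amiRNACWIN24 libraries and 207 to 255 in WT libraries.

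NGA1, the most abundant of the family, had a smaller log2 fold change. Its level was 18.0, 16.1, 18.7 and 18.4 RPKM in amiRNACWIN24 replicates 1 to 4, against 11.3, 15.3, 15.5 and 14.6 RPKM in WT replicates 1 to 4. The groups did not overlap, but amiRNACWIN24 replicate 2 came within 1 RPKM of WT replicates 2 and 3, and WT replicate 1 was well below the rest. NGA1 rose by a log2 fold change of 0.33 ± 0.11 (SE; limma adjusted p = 0.026), with means of 17.8 ± 1.17 RPKM in amiRNACWIN24 buds and 14.2 ± 1.95 RPKM in WT buds (SD). Without WT replicates 1 and 2 the log2 fold change was 0.23 and no longer passed (adjusted p = 0.067), and it did not pass without amiRNACWIN24 replicate 1, 3 or 4 either (0.32, 0.30 and 0.31). Without WT replicates 1 and 2 and with the length trend removed, it was 0.27 and passed (limma adjusted p = 0.011).

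NGA4 held 2.82, 2.97, 3.07 and 3.74 RPKM in amiRNACWIN24 replicates 1 to 4, against 2.07, 2.07, 2.88 and 2.34 RPKM in WT replicates 1 to 4. Here the groups overlapped, since WT replicate 3 lay above amiRNACWIN24 replicate 1. The log2 fold change of 0.37 ± 0.13 (SE) passed the limma test narrowly (adjusted p = 0.041), while an exact permutation test (two-sided, 70 arrangements of the libraries) gave p = 0.057. The call was kept in 9 of 20 alternative analyses and was lost without any 1 of the amiRNACWIN24 libraries and without WT replicate 1, 2 or 4, and without WT replicates 1 and 2 the log2 fold change was 0.23 (adjusted p = 0.24). NGA2 was the NGA gene that did not pass. It held 2.33, 2.11, 2.28 and 2.44 RPKM in amiRNACWIN24 replicates 1 to 4, against 1.93, 1.90, 2.31 and 1.89 RPKM in WT replicates 1 to 4. WT replicate 3 lay inside the amiRNACWIN24 range, and the log2 fold change was 0.16 with a 95% interval of -0.10 to 0.41 (limma adjusted p = 0.28).

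The sequence just before the annotated gene start is shown for the 4 NGA genes. Reading it showed a short run of bases that NGA1, NGA3 and NGA4 share. Coordinates and strands are of TAIR10 and sequences are from the RefSeq TAIR10.1 assembly, which has the same coordinates. Each line is 110 bases, 5′ to 3′ in the direction of the gene, ending at the base before the gene start, except in NGA4, where it ends 31 bases before it. Capitals mark the longest run shared by the 3 genes, AAAAGGACAA, and the hexamer CACATG, a form of the E-box CANNTG that bHLH factors bind.
NGA1 (chr2:19260796-19260905, plus strand): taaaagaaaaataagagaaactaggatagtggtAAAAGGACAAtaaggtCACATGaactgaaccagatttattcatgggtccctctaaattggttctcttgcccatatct
NGA3 (chr1:13715-13824, minus strand): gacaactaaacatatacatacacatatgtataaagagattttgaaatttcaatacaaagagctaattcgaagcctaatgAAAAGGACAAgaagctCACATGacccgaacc
NGA4 (chr4:639107-639216, plus strand): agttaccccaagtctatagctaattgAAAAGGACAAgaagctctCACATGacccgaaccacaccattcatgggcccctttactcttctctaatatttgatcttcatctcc
NGA2 (chr3:22951213-22951322, plus strand): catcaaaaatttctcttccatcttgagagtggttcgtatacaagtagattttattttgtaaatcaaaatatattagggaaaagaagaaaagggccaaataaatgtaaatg
The shared run of 10 bases is followed by CACATG after 6 bases in NGA1, 6 in NGA3 and 8 in NGA4, and CACATG starts 61, 15 and 96 bases before the gene start in these 3 genes. The longest run common to NGA3 and NGA4 alone is 19 bases. The run was found by reading these promoters, so its presence in 3 of them is no test. Searched on both strands in the 250 bases before the start of 27443 protein-coding genes, AAAAGGACAA occurs in 0.288%. Followed by CACATG within 20 bases on the gene's strand it occurs in 3 genes, which are NGA1, NGA3 and NGA4. This pattern was also set from these 3 sequences, so its absence from other windows is no test either. CACATG alone occurs in 11.1% of the windows, and in 5 of the 10 regulators, which are NGA1, NGA3, NGA4, STY2 and HEC1. The hexamer too was singled out from the NGA1, NGA3 and NGA4 sequences, so this count is no test. The NGA2 window holds neither the run nor any E-box. Any E-box is found in 55.3% of the windows and in 8 of the 10 regulators, all but NGA2 and STY1. CACCTG, the hexamer bound by RAV-type B3 domains, occurs in 0 of the 10 windows and in 2.57% of all windows. A match describes letters and does not show that a factor binds.

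STY2 had the smallest relative spread between libraries of the 10 regulators, in both genotypes. Its level was 4.13, 4.21, 4.06 and 4.31 RPKM in amiRNACWIN24 replicates 1 to 4, against 2.35, 2.71, 2.74 and 2.58 RPKM in WT replicates 1 to 4. The amiRNACWIN24 libraries were close together, and all were more than 1 RPKM above every WT library. With means of 4.18 ± 0.107 RPKM in amiRNACWIN24 buds and 2.59 ± 0.179 RPKM in WT buds (SD, n = 4 each), the ratio was 1.61. STY2 rose by a log2 fold change of 0.60 ± 0.096 (SE; limma adjusted p = 0.0007), 0.55 with the length trend removed and 0.57 without WT replicates 1 and 2.

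STY1 was the lowest of the 10 genes and, with a mean under 1 RPKM, was not tested in the limma fit. It held 0.962, 0.818, 0.527 and 1.22 RPKM in amiRNACWIN24 replicates 1 to 4, against 0.700, 1.19, 1.41 and 0.957 RPKM in WT replicates 1 to 4. These levels rest on 26 to 60 reads in amiRNACWIN24 libraries and 38 to 70 in WT libraries, and the groups overlap over most of their range. The exact two-sided permutation p was 0.46, and in a limma fit with no filter on low values STY1 differed by -0.18 ± 0.19 (SE) on the log2 scale (adjusted p = 0.49). It was -0.24 with the length trend also removed and -0.30 without WT replicates 1 and 2, and passed in neither (adjusted p = 0.34 and 0.37). Among all genes in these fits without the filter, 21.8% of 26140 passed as higher and 16.3% as lower, 16.9% and 14.3% with the length trend removed, and 16.3% and 14.1% without WT replicates 1 and 2.

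SPT, the bHLH partner of the HEC proteins, was the most abundant regulator in amiRNACWIN24 buds. It measured 18.6, 19.1, 20.9 and 20.1 RPKM in amiRNACWIN24 replicates 1 to 4, against 12.4, 15.4, 15.6 and 12.9 RPKM in WT replicates 1 to 4. Every amiRNACWIN24 library exceeded every WT library, and WT replicates 1 and 4 were the lowest. SPT rose by a log2 fold change of 0.47 ± 0.093 (SE; limma adjusted p = 0.0021), with a ratio of means of 1.39, and the value was 0.48 with the length trend removed and 0.45 without WT replicates 1 and 2. Its promoter window is shown because it alone among the 10 holds the palindromic G-box CACGTG and the auxin response element TGTCTC. The line covers 210 to 111 bases before the gene start, with both motifs in capitals.
SPT (chr4:17413873-17413972, plus strand): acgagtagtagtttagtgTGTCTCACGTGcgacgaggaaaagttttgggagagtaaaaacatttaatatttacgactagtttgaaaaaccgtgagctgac
The motifs overlap by 1 base. On both strands CACGTG occurs in 6.49% of the 27443 promoter windows and TGTCTC in 10.9%.

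None of the 3 HEC genes passed the test. HEC1 held 1.68, 1.33, 1.34 and 2.24 RPKM in amiRNACWIN24 replicates 1 to 4, against 0.922, 1.78, 2.02 and 2.0 RPKM in WT replicates 1 to 4. The groups overlap almost completely, and the log2 fold change was -0.0042 with a 95% interval of -0.48 to 0.47 (limma adjusted p = 0.99). With the length trend removed it was 0.21 and did not pass. HEC3, the most abundant of the HEC genes, held 7.10, 6.89, 7.74 and 8.32 RPKM in amiRNACWIN24 replicates 1 to 4, against 6.15, 10.6, 9.92 and 10.1 RPKM in WT replicates 1 to 4. WT replicates 2 to 4 lay above every amiRNACWIN24 library and WT replicate 1 lay below all of them. With all libraries the log2 fold change was -0.25, with a 95% interval of -0.59 to 0.09, and HEC3 did not pass (limma adjusted p = 0.20). The call depended on WT replicate 1, without which HEC3 fell by 0.42 on the log2 scale (adjusted p = 0.004). HEC3 is also the shortest of the 10 genes, at 1006 nt of exon, and its log2 fold change turned to 0.12 once the length trend was removed (adjusted p = 0.56). With the length trend removed and WT replicates 1 and 2 left out it was -0.06 (limma adjusted p = 0.67).

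HEC2 was the most variable of the 10 regulators. It held 2.97, 2.59, 1.99 and 6.01 RPKM in amiRNACWIN24 replicates 1 to 4, against 1.57, 1.25, 2.80 and 1.76 RPKM in WT replicates 1 to 4. amiRNACWIN24 replicate 4 was at least 2 times any other library, and WT replicate 3 lay above amiRNACWIN24 replicates 2 and 3. The means of 3.39 ± 1.80 RPKM in amiRNACWIN24 buds and 1.84 ± 0.673 RPKM in WT buds (SD) gave a log2 fold change of 0.67 ± 0.29 (SE), close to that of NGA3 but short of the threshold (limma adjusted p = 0.074). Without amiRNACWIN24 replicate 3 it was 0.85 (adjusted p = 0.039), and without WT replicate 3 it was also 0.85 (adjusted p = 0.034). Without amiRNACWIN24 replicate 4, the library at 6.01 RPKM, it was 0.39 (limma adjusted p = 0.18), and without WT replicates 1 and 2 it was 0.41 (adjusted p = 0.33).

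**Figure D2:**
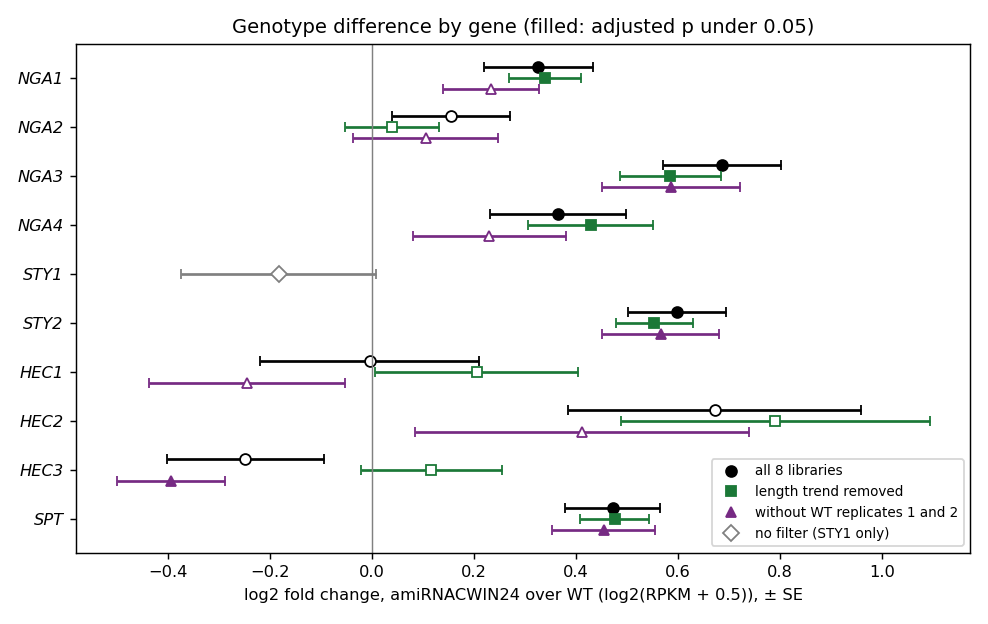
Log2 fold change of each regulator, amiRNACWIN24 over WT, with its standard error, from all 8 libraries (circles), with the exon length trend removed (squares) and without WT replicates 1 and 2 (triangles); filled symbols passed at an adjusted p under 0.05. NGA3, STY2 and SPT stay between 0.45 and 0.69 in all 3 fits, and NGA1 and NGA4 lose the call in the third. HEC3 changes sign and passes as lower in the third (-0.39). HEC1 also changes sign and does not pass in any of the 3.

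The 5 genes that rose have exon lengths of 1527 to 1905 nt, near the middle of all genes. In the decile of genes around 1667 nt the log2 fold changes had a median of 0.02 and an upper quartile of 0.19, and in the next decile, around 1866 nt, 0.11 and 0.27. Each of the 5 lay above both upper quartiles. NGA2, at 1943 nt, lay on the trend, which at its length amounts to 0.12 where its log2 difference was 0.16. In HEC3 the trend amounts to -0.36, in HEC1 to -0.21 and in HEC2 to -0.12, and it is between -0.06 and 0.10 in NGA1, NGA3, NGA4, STY2 and SPT.

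**Figure D3:**
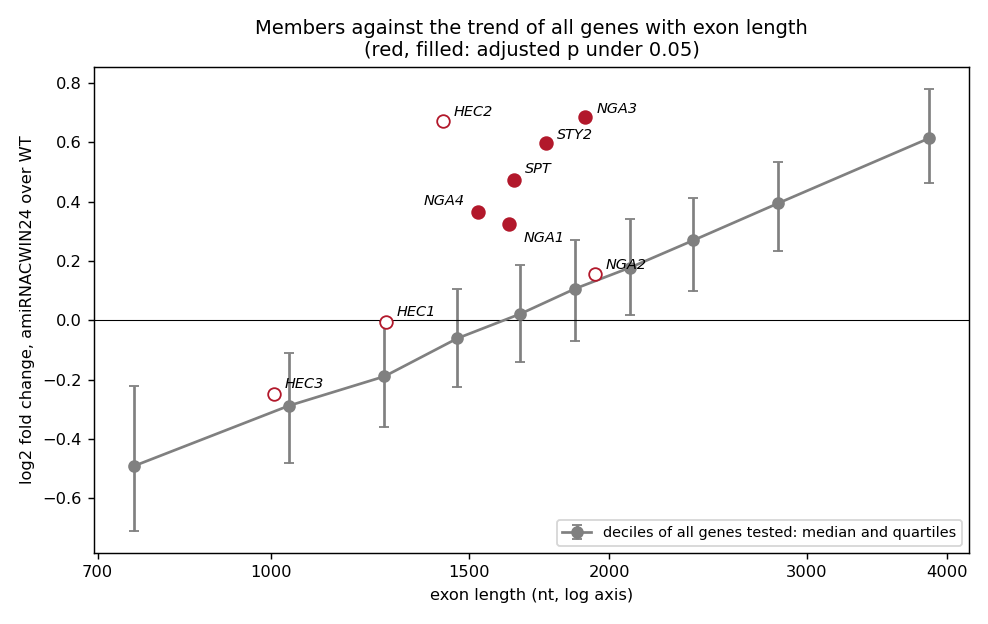
Log2 fold change of the 9 tested regulators (red; filled where the adjusted p was under 0.05) against exon length in nt on a log axis, with the median and quartiles of all genes tested in deciles of exon length (grey). NGA1, NGA3, NGA4, STY2, SPT and HEC2 lie above the upper quartile of genes of their length, and NGA2 lies on the grey line.

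Whether relatives differed in their response was tested on the log2 ratio of their levels within each library, for the 10 pairs of NGA, STY and HEC genes, with an exact permutation test. None of the 10 pairs passed after Benjamini-Hochberg adjustment over the pairs, which could happen only if at least 6 pairs had the smallest p together. Of the 10 pairs 3 had the smallest p that 70 arrangements allow, an exact p = 0.029 (adjusted 0.095). The ratio of STY1 to STY2 averaged -1.78 ± 0.284 (log2) in amiRNACWIN24 libraries and -1.0 ± 0.208 in WT libraries, a difference of -0.78, with no overlap between the groups. NGA2 to NGA3 differed by -0.53 and NGA3 to NGA4 by 0.32, also with no overlap. With the length trend removed STY1 to STY2 differed by -0.82 and NGA2 to NGA3 by -0.54 (exact permutation test, adjusted p = 0.071 for each). NGA3 to NGA4 then differed by only 0.16 (adjusted p = 0.18). The shares and sums that follow are not corrected for exon length. As shares of the family, STY2 made up 82.8% ± 4.47 of the summed STY1 and STY2 level in amiRNACWIN24 buds and 71.4% ± 4.72 in WT buds (SD, n = 4 each). NGA3 made up 23.4% ± 1.87 of the summed NGA level in amiRNACWIN24 buds and 18.6% ± 1.43 in WT buds, while NGA1 held 58.7% ± 1.81 in amiRNACWIN24 buds and 62.2% ± 3.12 in WT buds. The summed NGA level was 30.4 ± 2.09 RPKM in amiRNACWIN24 buds and 22.8 ± 2.71 RPKM in WT buds, and the summed HEC level was 12.5 ± 2.71 RPKM in amiRNACWIN24 buds and 12.7 ± 2.75 RPKM in WT buds. Of the HEC sum HEC2 held 25.9% ± 7.63 in amiRNACWIN24 buds and 14.8% ± 4.66 in WT buds.

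**Figure D4:**
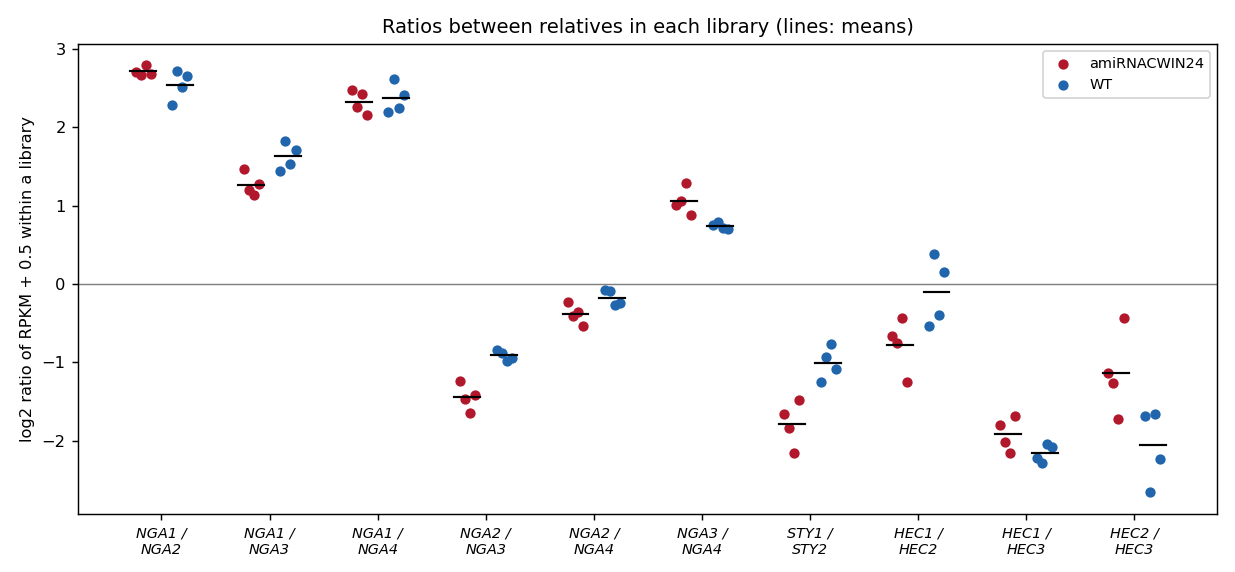
Log2 ratio of RPKM + 0.5 between relatives within each library, for the 4 amiRNACWIN24 libraries (red, left) and the 4 WT libraries (blue, right), with group means as lines. The groups are apart for NGA2 to NGA3, NGA3 to NGA4 and STY1 to STY2, and 0 of the 10 pairs passed after adjustment.

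The order of levels, not corrected for exon length, was nearly the same in both genotypes. In amiRNACWIN24 buds it ran SPT, NGA1, HEC3, NGA3, STY2, HEC2, NGA4, NGA2, HEC1 and STY1. In WT buds it ran NGA1, SPT, HEC3, NGA3, STY2, NGA4, NGA2, HEC2, HEC1 and STY1. Neighbours in these orders mostly overlapped, and the library ranges were apart in amiRNACWIN24 buds between NGA1 and HEC3, NGA3 and STY2, NGA4 and NGA2, and HEC1 and STY1. In WT buds they were apart between SPT and HEC3, HEC3 and NGA3, and NGA3 and STY2. SPT was above NGA1 in all 4 amiRNACWIN24 libraries and in all WT libraries but 1, replicate 4. The libraries of a genotype also differed as a set: WT replicate 3 had the highest WT level of 9 of the 10 regulators (all but HEC3), and WT replicate 1 had the lowest of 7. Among amiRNACWIN24 libraries replicate 4 was highest in 7 and replicates 1 and 2 in 0. WT replicate 3 held the lowest late pollen sum of the WT libraries, 122 RPKM, and WT replicate 1 the highest, 300.3 RPKM. WT replicates 2 and 4 held 299.3 and 163 RPKM. The summed level of the 10 regulators in WT replicates 1 to 4 was 43.3, 56.2, 60.3 and 53.2 RPKM. Whether these sums go together was not tested.

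Closest relatives of the regulators were described by lists of genes. Of the 8 other SHI-family genes 5 were tested, 4 rose and 0 fell, with a median log2 fold change of 0.43, beside 29.4% and 21.0% of all genes. With the length trend removed 2 of the 5 rose, beside 15.1% of all genes, and without WT replicates 1 and 2 also 2, SRS5 (0.56) and LRP1 (0.64), beside 24.2%. SRS5 averaged 5.29 ± 0.703 RPKM in amiRNACWIN24 buds and 3.45 ± 0.126 RPKM in WT buds, and its log2 difference was 0.55 (limma adjusted p = 0.0019). LRP1, a gene marking early lateral root primordia, rose by a log2 fold change of 0.63 (adjusted p = 0.0049), SRS7 by 0.43 (adjusted p = 0.035) and SHI by 0.37 (adjusted p = 0.046). SHI overlaps a gene on the opposite strand, and the strand setting of the counting is not given in the sources used here, so reads of the pair cannot be told apart. With the length trend removed SRS5 (0.54) and SRS7 (0.37) rose, and LRP1 (0.36) and SHI (0.07) did not pass. SRS8 was at 0 in all 8 libraries.

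Of 7 relatives of NGA in the RAV and NGATHA-like group 6 were tested, 1 rose and 0 fell, with a median of 0.13, where 29.4% and 21.0% of all genes did. The 1 gene was TEM1, a repressor of flowering, at 14.99 ± 3.20 RPKM in amiRNACWIN24 buds and 9.60 ± 2.34 RPKM in WT buds (log2 fold change 0.63, limma adjusted p = 0.024), and it did not pass with the length trend removed (0.58, adjusted p = 0.067). RAV1, NGAL1 and NGAL3 had log2 fold changes of 0.43, 0.17 and 0.10 and did not pass. Without WT replicates 1 and 2 the list's median was 0.43, where that of all genes was 0.03. In that fit 2 of the 6 rose, TEM1 (0.77) and RAV1 (0.59, limma adjusted p = 0.048), beside 24.2% of all genes. Of 8 partners and carpel genes that act with HEC and SPT 6 were tested, 0 rose and 1 fell, with a median of -0.05. At 29.4% higher and 21.0% lower over all genes, 1 of 6 lower is near the background. The gene that fell was SHP2, a MADS box gene of carpel margins, at 12.1 ± 1.36 RPKM in amiRNACWIN24 buds and 15.5 ± 0.730 RPKM in WT buds (log2 fold change -0.35, limma adjusted p = 0.010), and it did not pass with the length trend removed (-0.15, adjusted p = 0.17). In that fit ETT, the auxin response factor of gynoecium patterning, fell instead (-0.27, adjusted p = 0.010). ALC, the closest bHLH relative of SPT, was at 48.8 ± 2.95 RPKM in amiRNACWIN24 buds and 54.9 ± 9.21 RPKM in WT buds (log2 fold change -0.15), and CRC, a YABBY gene of the carpel, at 30.9 ± 4.29 RPKM in amiRNACWIN24 buds and 33.8 ± 8.11 RPKM in WT buds (-0.10); neither passed. SHP2, ALC and CRC each overlap a gene on the opposite strand.

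Transmitting tract genes showed no call. Of 6 listed genes 3 were tested, and NTT, HAF and BEE1 had log2 fold changes of 0.18, 0.13 and -0.07. With the length trend removed HAF, a bHLH gene needed redundantly for the transmitting tract, passed at 0.49 (limma adjusted p = 0.011). It was the 1 of 3 that rose in that fit, beside 15.1% of all genes. Without WT replicates 1 and 2 HAF did not pass (0.19, limma adjusted p = 0.26). HAF also overlaps a gene on the opposite strand.

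Of 14 auxin and cytokinin genes known to act with or below these regulators 10 were tested, 4 rose and 2 fell, shares near the 29.4% and 21.0% of all genes. The same 4 and 2 genes passed without WT replicates 1 and 2, beside 24.2% and 20.3% of all genes. PID, a kinase that directs PIN auxin carriers in the membrane, was at 9.64 ± 1.35 RPKM in amiRNACWIN24 buds and 6.01 ± 1.04 RPKM in WT buds (log2 fold change 0.65, limma adjusted p = 0.0029). ARR1, a cytokinin response regulator, rose by a log2 fold change of 0.62, and the auxin carriers PIN7 and PIN3 by 0.39 and 0.35. The auxin synthesis gene YUC2 was at 2.39 ± 0.610 RPKM in amiRNACWIN24 buds and 5.04 ± 1.30 RPKM in WT buds (log2 fold change -0.93, limma adjusted p = 0.003), and YUC6 fell by 0.42 (adjusted p = 0.046). With the length trend removed PID (0.48), YUC2 (-1.11) and YUC6 (-0.66) kept their calls, and ARR1 (0.16), PIN7 (-0.06) and PIN3 (0.02) did not pass. Of all genes 15.1% rose and 14.2% fell in that fit. PIN3 and YUC6 are beyond the 4 genes with the smallest p and are named to complete the counts.

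YUC4, the auxin synthesis gene known as a direct target of STY1, was under the mean of 1 RPKM and is named here after its values were seen. It held 1.02, 1.14, 1.21 and 1.35 RPKM in amiRNACWIN24 replicates 1 to 4, against 0.445, 0.403, 0.714 and 0.610 RPKM in WT replicates 1 to 4. All 4 amiRNACWIN24 libraries lay above all 4 WT libraries, opposite to YUC2. Its log2 fold change with no filter on low values was 0.69, at a limma adjusted p of 0.0024. It was 0.54 with the length trend also removed (adjusted p = 0.0093) and 0.53 without WT replicates 1 and 2 (adjusted p = 0.017). The window from 110 to 11 bases before its start is shown because it holds ACTCTAC, the element that STY1 is known to bind, in capitals.
YUC4 (chr5:3613651-3613750, minus strand): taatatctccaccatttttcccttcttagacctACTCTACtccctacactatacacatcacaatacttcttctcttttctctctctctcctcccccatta
On both strands ACTCTAC occurs in 1.75% of the 27443 promoter windows and in 0 of those of the 10 regulators.

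**Figure D5:**
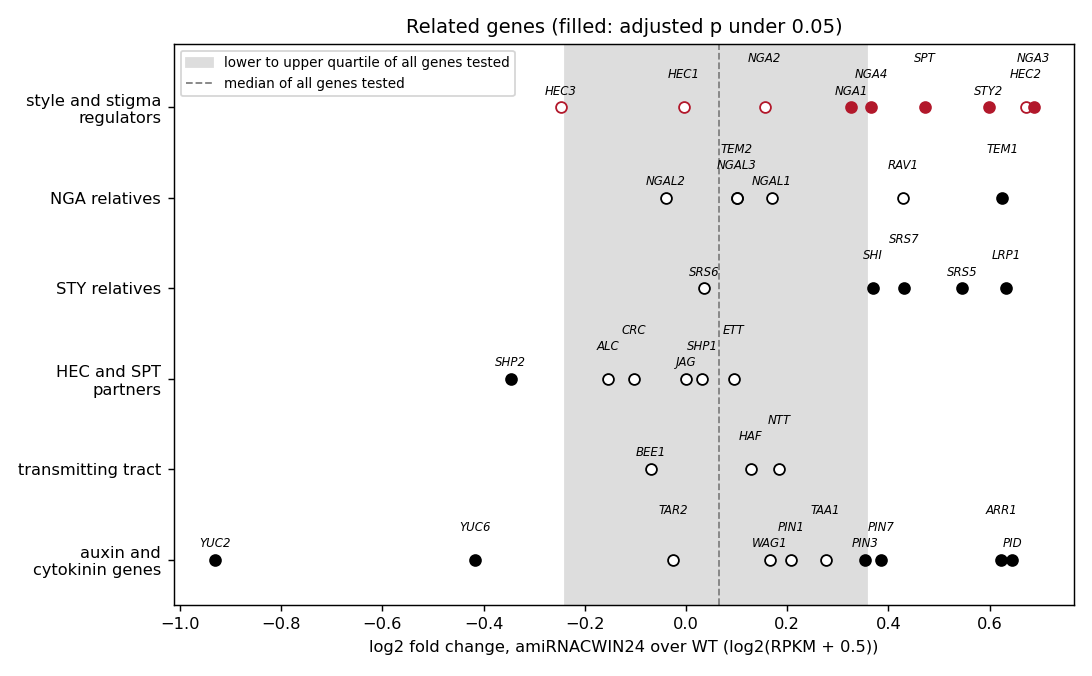
Log2 fold changes, amiRNACWIN24 over WT, of the tested style and stigma regulators (red) and of 5 lists of related genes (black), filled where the adjusted p was under 0.05, with the quartile range (grey) and median (dashed) of all genes tested. The regulators, the STY relatives and the auxin and cytokinin genes each have 4 or more filled symbols to the right of 0. The auxin and cytokinin genes also have 2 to the left, and the partners of HEC and SPT have a single filled symbol, SHP2, to the left.

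The authors' deposited table of the same comparison calls 15.6% of 25880 genes higher and 18.4% lower at a false discovery rate under 0.05. In the authors' deposited table NGA3, STY2 and SPT pass, with log2 fold changes of 0.67, 0.61 and 0.39. NGA1 (0.25, false discovery rate 0.081), NGA4 (0.35, 0.37) and HEC2 (0.80, 0.059) do not pass in the authors' deposited table, and neither do the other 4 regulators. The test behind that table is not given in the sources used here.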

How the data were processed

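Total RNA of pooled floral buds was DNase-treated and sequenced as 125 bp paired-end Illumina libraries, per the labels' protocols, against build TAIR10, per the submitters' processing notes. No source used here names the aligner, counter or strand setting. The authors deposited RPKM values per library and gene, and a table of their own comparison. The log2 fold change and p-value columns the authors deposited are each treated as a score, because 8097 genes have no number there. Reads were recovered from the RPKM steps (low values whole within 0.05 reads in 99.6% to 99.7%).

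Log2(RPKM + 0.5) was compared in limma 3.58.1 (R 4.3.3; eBayes with a trend, two-sided, genotype only) for the 19082 genes that averaged 1 RPKM or more, with Benjamini-Hochberg adjustment over all of them. The trend with log2 exon length (natural spline, df 4) was subtracted in each library for 18994 genes. Of 33977 genes 32532 had the same coordinates in the RefSeq TAIR10.1 annotation, all 10 regulators among them, and none of the 10 overlaps another gene. Named are the 10 regulators, CWINV2, CWINV4, STK, up to 4 tested genes with the smallest p per list, and marker lists. Regulators, lists and alternatives were chosen with earlier results of these data known. The limma fit was also tested on simulated data, with a lower minimum level than here and no trend with exon length. That test says nothing about the length trend. Alternatives were other pseudocounts (0.1 and 1), filters (none and 5 RPKM), scalings, weights and variance models, each library left out, WT replicates 1 and 2 left out, a replicate block, a minimum change of 1.5-fold and, chosen after seeing the data, voom on recovered reads, length removal without WT replicates 1 and 2 and, for genes under 1 RPKM, length removal or omission of WT replicates 1 and 2 with no filter. Python 3.11.15 was used for the rest.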

Additional observations from a re-analysis of the deposited data

Results flagged for a closer look

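In 2 of 20 sets of 4 libraries (10 regulators in each genotype) 1 library stood apart from the other 3 by Dixon's criterion, which chance meets in about 1 in 20 sets. NGA2 was at 2.31 RPKM in WT replicate 3, the highest WT library, with a gap of 0.915 of the whole range to the next. HEC3 was at 6.15 RPKM in WT replicate 1, the lowest WT library, with a gap of 0.853 of the range, and HEC3 passed as lower in amiRNACWIN24 only without that library, without WT replicates 1 and 2, and with array weights.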

How the results depend on the processing

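NGA3 (log2 0.52 to 0.76 over 21 alternatives), SPT (0.38 to 0.52 over 21) and STY2 (0.53 to 0.67 over 20) passed in every alternative run for them. NGA1 passed in 17 of 21 and was lost without amiRNACWIN24 replicate 1, 3 or 4 and without WT replicates 1 and 2. NGA4 passed in 9 of 20 and was lost without each amiRNACWIN24 library, without WT replicate 1, 2 or 4, with no filter and with array weights. It was also lost without WT replicates 1 and 2 together, whether or not the length trend was removed. The number of regulators that rose was 5, and it was 3 with a minimum of 5 RPKM (where only NGA1, NGA3, HEC3 and SPT are tested), 3 without WT replicates 1 and 2, 2 with a minimum change of 1.5-fold, and 3 to 6 when single libraries were left out. The number that fell was 0, and it was 1, HEC3, with array weights and 1 without WT replicates 1 and 2, and ranged from 0 to 1 with single libraries left out. In the 11 alternatives run for the ratios between relatives 0 of the 10 pairs passed, which says nothing about their stability, since with all libraries 6 pairs would have to reach the smallest p together for any to pass. Over all genes, 5611 rose and 3998 fell in the main analysis, against 2877 and 2696 with the length trend removed and 5887 and 4625 with voom on recovered reads, where 5 regulators rose and 0 fell. With a minimum of 5 RPKM 4532 of 14396 genes rose. Of 19082 genes 6526 rose and 4882 fell with array weights, and 4627 rose and 3867 fell without WT replicates 1 and 2. With single libraries left out 4667 to 5670 of 19082 genes rose and 3290 to 4484 fell. The share of all genes at a minimum change of 1.5-fold was not counted. Same-numbered libraries of the genotypes deviated from their group means with correlations of -0.273, 0.142, -0.324 and 0.527. Of the 4 amiRNACWIN24 libraries 1 correlated best with its own number. So few libraries cannot settle whether the numbers pair the samples. With the replicate number as a block 5 regulators rose and 0 fell, where 5581 and 3590 of 19082 genes did. The cause of these shifts was not tested. STY1 rests on 26 to 70 reads per library.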

Other observations

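EDF3, a RAV-type relative of the NGA genes under the mean of 1 RPKM, was noticed after its values were seen. It held 0.675, 0.995, 1.14 and 0.887 RPKM in amiRNACWIN24 replicates 1 to 4, against 0.528, 0.631, 0.302 and 0.406 RPKM in WT replicates 1 to 4, with no overlap. With no filter on low values its log2 fold change was 0.56 (limma adjusted p = 0.013), and 0.63 with the length trend also removed (adjusted p = 0.014). AHP6, an inhibitor of cytokinin signalling, held 0.0379, 0.357, 0.421 and 0.384 RPKM in amiRNACWIN24 replicates 1 to 4, against 0.626, 0.551, 1.07 and 0.398 RPKM in WT replicates 1 to 4. The AHP6 groups overlap at 1 library on each side, and it did not pass (log2 -0.54, limma adjusted p = 0.074 with no filter).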
